A study of Mus musculus with 14 samples.

Results

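The genotype by stage interaction asks whether loss of Mff shifts the transcripts of an ovulated oocyte differently from those of an oocyte that has not yet matured. For each gene it is the CKO minus WT difference in ovulated oocytes minus the same difference in germinal vesicle (GV) oocytes, on the log2 scale. A positive value means that the gene stood higher in CKO relative to WT after ovulation than before it. The members were the 16196 genes present in the read count tables of both stages, of 18507 genes in either table, and 13199 of them passed the filter on low counts and were tested.

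The study sequenced RNA of mouse oocytes in 14 libraries. WT oocytes carried the floxed Mff alleles alone (Mff fl/fl), and CKO oocytes carried them together with Gdf9-Cre, a transgene that expresses Cre recombinase in oocytes. There were 4 libraries of each genotype at the GV stage and 3 of each after ovulation. No source used here gives the animals' age or how many animals and oocytes went into a library, and the p-values therefore measure only the spread between these libraries, which may be technical. Every group shared the floxed allele, and no group carried Cre without it.

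Mff is the outer-membrane receptor that brings the GTPase DRP1 to mitochondria and peroxisomes to divide them. A GV oocyte is arrested in prophase of the first meiotic division and holds a store of maternal mRNAs made during growth. Transcription is silent when meiosis resumes, so the change from the GV to the ovulated stage depends on which stored mRNAs are kept, given longer poly(A) tails and translated, or shortened and removed. Transcripts of the respiratory chain and of ribosomes are known to be among those lost during maturation in the mouse.

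Library totals lay between 26575593 and 28847424 counts, and values of single genes are TMM-normalised CPM (counts scaled to a library of one size), whereas summed lists are CPM of the library totals. CPM is a share of a library: fewer oocytes and less RNA per oocyte cannot be told apart, and a change in an oocyte's total mRNA is not visible. At the GV stage 3 libraries, WT 2 with CKO 1 and CKO 2, lay away from the other 5 on a first principal component that held 40.7% of the variance, with 35.2% to 42.4% of their counts in the 100 most abundant genes against 48.2% to 51.1%. Of the ovulated libraries, WT 3 and CKO 2 lay farthest out on a component that held 47.6%. All 20 markers of oocyte identity were above 0 in each of the 14 libraries.

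Mff itself (Entrez gene 75734, chr1:82724890-82752390 in GRCm38.p6) followed the labels at both stages. In GV oocytes it measured 925, 477, 653 and 945 CPM in the WT libraries and 30.1, 38.2, 47.2 and 42.9 CPM in the CKO libraries. In ovulated oocytes it measured 308, 304 and 688 CPM in WT and 31.3, 43.4 and 54.4 CPM in CKO. Every CKO library lay far below every WT library. The interaction of Mff was 0.91 (SE 0.46, adjusted p = 0.358), and it missed the threshold in 28 of 29 alternatives (adjusted p = 0.0439 with limma's voom and quality weights). Which exon was floxed is not stated by the sources used.

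The interaction was almost wholly in one direction. With adjusted p under 0.05, 430 of 13199 genes were called (3.26%), 419 of them more positive (3.17%) and 11 more negative (0.0833%), and 2052 genes had an unadjusted p under 0.05 (15.5%). The more positive genes had a median interaction of 2.43 (quartiles 1.95 and 3.06), against -0.07 over all tested genes (quartiles -0.48 and 0.62). It was at least 2 on the log2 scale in 298 of the 419 and at least 3 in 110. The count rested on single libraries: it was 129 without ovulated CKO 2 and 1006 without ovulated CKO 1. It was 239, 231 and 231 without GV WT 1, WT 3 or WT 4, and 269 and 224 without ovulated WT 1 or WT 2. It was 229 without the 3 GV libraries that stood apart and 157 without ovulated WT 3 and CKO 2, and the more positive genes made up 89.6% to 100% of the calls in each of the 29 alternatives.

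By their medians, the more positive genes stood at similar levels in both genotypes before maturation, were low in ovulated WT oocytes and were less depleted in ovulated CKO oocytes. The median level of the 419 genes was 33.9 CPM in GV WT, 36.7 in GV CKO, 2.02 in ovulated WT and 10.2 in ovulated CKO. Ovulated WT oocytes held a median of 5.45% of the GV WT level, and ovulated CKO oocytes 31.8% of the GV CKO level, where the medians over all tested genes were 89.1% and 87.5%. The median change from GV to ovulated was -4.20 in WT and -1.65 in CKO on the log2 scale, against -0.17 and -0.19 over all tested genes. These contrasts come from one fit and share their libraries with the interaction, so they describe how the difference was made up and are no further evidence for it.

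Of the 419 genes, 418 fell in WT from GV to ovulated, where 36.2% of all tested genes fell. In CKO 295 of them fell (31.2% of all tested genes), 117 were not called and 7 rose (23.2% of all tested genes). In 133 genes the ovulated CKO mean was at least 50% of the GV CKO mean, and in 35 it was under 10%. The ovulated WT mean was under 10% of the GV WT mean in 297. The genes were called for a difference between these courses, so the gap between 297 and 35 follows from the selection. These counts were not made over all tested genes. The ovulated groups did not overlap in 410 of the 419, every CKO library lying above every WT library, as in 14.6% of all tested genes. The count of 410 also follows largely from the selection, since the genes were called from these same libraries. The GV groups overlapped in 405, with CKO above WT in 8 (2.42% of all tested genes) and below it in 6 (1.77%).

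Few genes were called for genotype before maturation. A count of calls depends on the spread between libraries and does not measure the size of the difference. In the same fit 4 of 13199 genes (0.0303%) differed between CKO and WT in GV oocytes, and none of them was among the 430. They were Mff, Mfhas1, Hmgn3 and Myo1e, named after their values were seen, with interactions of 0.91, -0.84, 0.24 and 0.62, none past the threshold. In ovulated oocytes 1260 genes were higher in CKO (9.55%) and 335 lower (2.54%), so most of the genes that differed after ovulation did not pass the test of the interaction. At an unadjusted p under 0.05 the GV contrast held 643 genes (4.87%) and the ovulated contrast 3528 (26.7%).

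**Figure D1:**
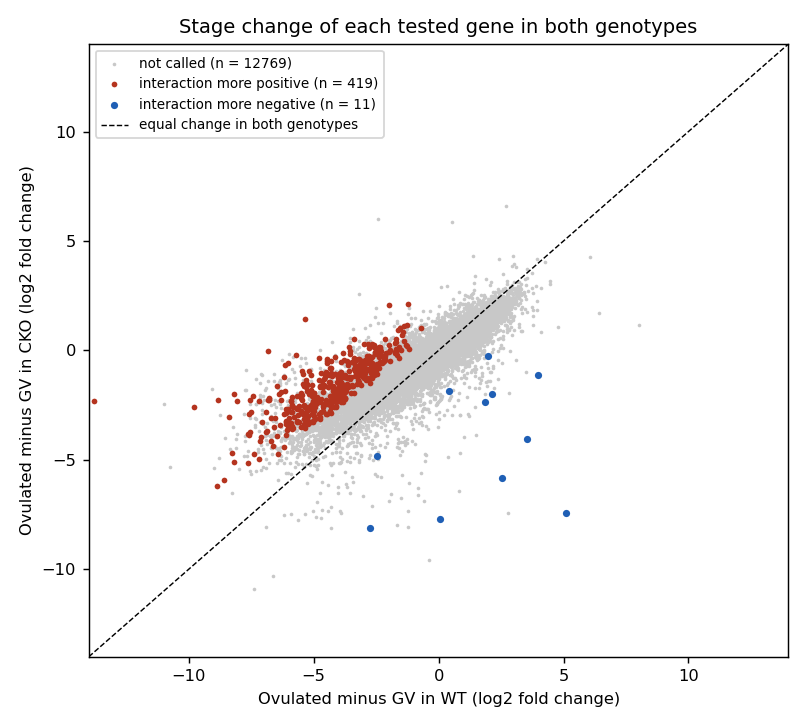
Each point is a tested gene, with its log2 change from GV to ovulated in WT on the x axis and in CKO on the y axis; red points are the 419 genes with a more positive interaction, blue points the 11 with a more negative one, and the dashed line marks an equal change. The red points lie left of 0 and above the line, with a median of -4.20 in WT and -1.65 in CKO, and the grey points follow the line.

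Among genes with a non-systematic symbol the smallest p belonged to Hint1 (Entrez 15254, chr11:54866383-54870506), a histidine triad nucleotide hydrolase. It measured 162, 130, 145 and 149 CPM in GV WT and 132, 190, 200 and 140 in GV CKO. Ovulated WT libraries held 5.12, 4.32 and 3.31 CPM and ovulated CKO libraries 45.6, 115 and 66.2. The GV groups overlapped and the ovulated groups were far apart, with an interaction of 3.97 (SE 0.42, adjusted p = 0.000118). The unnamed gene LOC100862468, singled out after its values were seen, had a smaller adjusted p of 1.25e-05. It was listed at 0 in all 3 ovulated WT libraries and measured 15.1, 18.4 and 8.20 CPM in ovulated CKO, with GV means of 63.2 and 69.7 CPM.

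Cox7c (Entrez 12867, chr13:86044798-86046795), a small subunit of cytochrome c oxidase, kept the larger part of its level in the knockout. It measured 113, 88.8, 102 and 92.2 CPM in GV WT and 111, 151, 136 and 87.4 in GV CKO, then 6.43, 4.81 and 1.99 in ovulated WT and 59.0, 114 and 82.7 in ovulated CKO. Ovulated WT oocytes were at 4.46% of their GV mean and ovulated CKO oocytes at 70.4% of theirs. The interaction was 3.98 (SE 0.47, adjusted p = 0.000474).

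Chchd2 (Entrez 14004, chr5:129881161-129887470) encodes a protein of the mitochondrial intermembrane space. It measured 700, 425, 601 and 659 CPM in GV WT, 331, 682, 767 and 688 in GV CKO, 9.97, 6.71 and 4.38 in ovulated WT and 77.7, 271 and 116 in ovulated CKO. All 3 ovulated CKO libraries lay above all 3 WT libraries and below every GV library. The interaction was 4.41 (SE 0.58, adjusted p = 0.00094).

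Psmb7, a catalytic subunit of the proteasome core (Entrez 19177, chr2:38588046-38643952), fell in both genotypes and fell further in WT. It measured 366, 327, 368 and 338 CPM in GV WT, 278, 505, 442 and 326 in GV CKO, 2.48, 3.00 and 2.24 in ovulated WT and 21.8, 75.6 and 24.5 in ovulated CKO. The change from GV to ovulated was -7.08 in WT and -3.25 in CKO on the log2 scale, an interaction of 3.83 (SE 0.52, adjusted p = 0.00099). Ovulated CKO 2 stood above the other CKO libraries here, as it did for Hint1, Cox7c and Chchd2.

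The oocyte's own regulators were represented by Figla (Entrez 26910, chr6:86016494-86020996), the transcription factor that switches on the zona pellucida genes. It measured 23.4, 29.6, 31.4 and 25.3 CPM in GV WT, 22.9, 37.5, 26.6 and 28.0 in GV CKO, 0.839, 0.807 and 0.427 in ovulated WT and 7.05, 18.5 and 8.35 in ovulated CKO. The interaction was 3.95 (SE 0.49, adjusted p = 0.000736). Hint1, Cox7c, Chchd2, Psmb7 and Figla passed the test in all 29 alternatives.

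**Figure D2:**
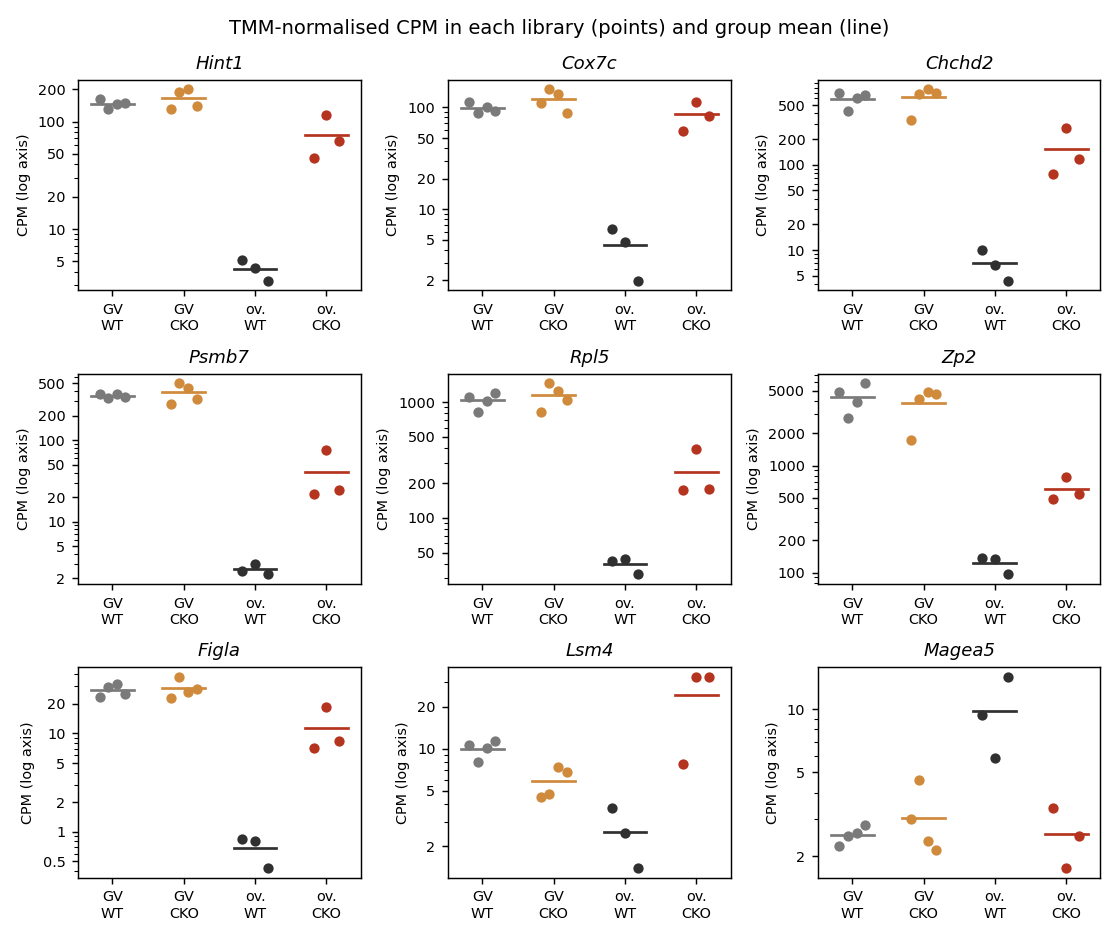
TMM-normalised CPM on a log axis for 9 named genes, one point per library and a line at each group mean, for both genotypes at both stages. In the first 7 genes, from Hint1 to Figla, the ovulated WT libraries lie lowest and the ovulated CKO libraries above them; Lsm4 is highest in ovulated CKO and Magea5 in ovulated WT.

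The transcripts that carried the interaction were short. Effective transcript length, taken from the ratio of each gene's count to its FPKM, had a median of 1022 bases in the 419 genes (415 with a value) and 2393 bases over all tested genes (12040 with a value). In the annotation the coding part had a median of 684 bases against 1392 and the 3' UTR 351 bases against 954. With genes in 10 equal bins by effective length, in the shortest bin, up to 833 bases, 15.1% were called more positive (182 of 1204) and the median interaction was 0.64, whereas in the longest bin 0.249% were called (3 genes) and the median was -0.29. GC content ran the other way, with a median of 53.0% in the 419 genes and 49.5% over all tested genes.

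By GC content, 0.622% of the lowest of 10 bins and 4.74% of the highest were called more positive, with median interactions of -0.47 and 0.60. Short transcripts fell in WT in general: the median WT change from GV to ovulated was -1.91 in the shortest bin by effective length and 1.26 in the longest. Over all genes with a value, the interaction had a Spearman correlation of -0.24 with effective length and 0.37 with GC content. For the same genes the GV genotype difference had -0.02 and -0.23, and the ovulated genotype difference -0.23 and 0.25. The WT change from GV to ovulated had 0.43 and -0.26. These are correlations across genes, which share libraries and are not independent replicates. After the trend of counts on length was removed in each library, 339 genes were called, 297 of them among the 430, 307 more positive and 32 more negative. The part of length and GC content in the interaction beyond these values was not tested.

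**Figure D3:**
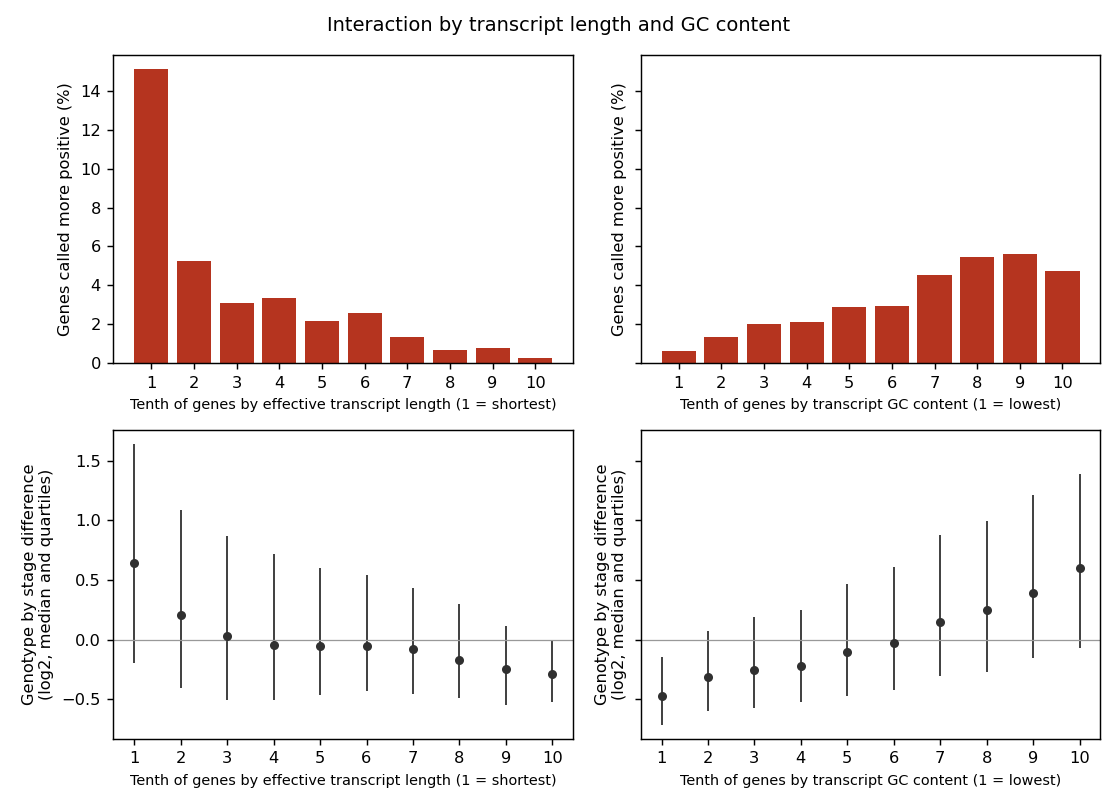
Tested genes in 10 equal bins by effective transcript length (left) and by transcript GC content (right); bars give the percentage of genes called more positive, points the median interaction on the log2 scale and lines its quartiles. The share falls from 15.1% in the shortest bin to 0.249% in the longest, and the median rises from -0.47 to 0.60 from the lowest to the highest GC bin.

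The 3' end of a stored mRNA carries the letters that are read for tail control, so the last 100 bases of the 3' UTR were searched for the cytoplasmic polyadenylation element, the site of the protein CPEB (TTTTAT or TTTTAAT on the transcript strand, which can overlap the poly(A) signal). SMART-Seq cDNA is primed on the poly(A) tail, so loss of an mRNA and shortening of its tail cannot be told apart in these data. Of 11998 genes with at least 100 bases of 3' UTR, 19.9% held the element. It was present in 6.96% of the more positive genes, 24 of 345. The windows below show 30 bases around the poly(A) signal, with the signal (AATAAA or ATTAAA) and any element in capitals, written as DNA on the transcript strand. They come from GENCODE vM21 transcripts on GRCm38 and were chosen as examples with their values in view. All 5 of these called genes have a poly(A) signal. The first 4 hold no element in their last 100 bases, and Zp2, with an annotated 3' UTR of 49 bases, was not searched:
Hint1: aattctgtgcctAATAAAagacattgttgc
Cox7c: gaaaaaattgtaAATAAActaatgacataa
Chchd2: tgagttaaaaaaAATAAAttggttattctg
Psmb7: ttaaaataaataAATAAAaagacaaaaaac
Zp2: ttggacttgcaAATAAAgagactgcagtta
The windows lie at chr11:54870462-54870491 (plus strand), chr13:86044819-86044848 (minus), chr5:129881161-129881190 (minus), chr2:38588039-38588068 (minus) and chr7:120132359-120132388 (minus).

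Called genes with the element were the exception, and 2 of the 24 are shown. In Rpl5 the element and the poly(A) signal overlap:
Commd4: TTTTATaggcaagaagAATAAAcaagtgta
Rpl5: actTTTTAATAAAtgagtcatttgaattta
These lie at chr9:57155045-57155074 (minus strand) and chr5:107908976-107909005 (plus). Next to them stand 4 genes of the meiotic cell cycle, spindle and deadenylation machinery that hold the element and were not called:
Bub1b: gtaTTTTATAATAAAatagtttttgttaca
Cks2: TTTTATtttacctgttttgttaAATAAAgt
Cnot8: TTTTAATtttgtaaAATAAAgattgctttt
Aurkc: TTTTATgaagtgatgttaATTAAAactgat
They lie at chr2:118641562-118641591, chr13:51650610-51650639, chr11:58118557-58118586 and chr7:7003048-7003077, all on the plus strand. Bub1b, a spindle checkpoint kinase, had stage differences of 1.13 in WT and 1.11 in CKO from GV to ovulated on the log2 scale, with an interaction of -0.03. Cks2, a CDK1 partner, had stage differences of 1.02 and 0.85, with an interaction of -0.17. Cnot8, a deadenylase, had stage differences of 0.77 in WT and 0.19 in CKO, with an interaction of -0.58 (adjusted p = 0.551), and Aurkc, a meiotic kinase, 0.38 and 0.03, with an interaction of -0.35 (adjusted p = 0.733).

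Over all genes with a searched 3' end, those with the element had a median interaction of -0.31 and stage differences of 0.77 in WT and 0.37 in CKO on the log2 scale. Those without it had medians of 0.00, -0.35 and -0.25. Of genes with the element 1.00% were called more positive, and of those without it 3.34%. The share was lower with the element in each of 4 equal bins of 3' UTR length, with 1.35% against 6.73% in the shortest and 0.760% against 1.20% in the longest. It was also lower in each of 4 bins of GC content of the last 100 bases, with 0.777% against 1.79% in the lowest and 1.48% against 4.99% in the highest. Of the 419 more positive genes 418 fell in WT, whereas genes with the element had a median rise there. The shares are therefore tied to the WT course, and they were not compared among genes that fell in WT alone.

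Other motifs of the same window were counted too. A poly(A) signal in the last 50 bases was found in 67.2% of the more positive genes and 79.4% of all, the Pumilio motif TGTANATA in 4.64% and 4.95%, and TATTTA in 6.96% and 10.5%. The GC content of these 100 bases had a median of 40% in the more positive genes and 35% over all. A match describes letters in this window and shows no binding.

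Subunits of the respiratory complexes and of ATP synthase, which make most of the oocyte's ATP, were called in a larger share than all tested genes. Of 80 tested subunits of complexes I to V encoded in the nucleus, 27 were called more positive and 0 more negative (33.8%, against 3.17% of all tested genes). Their median interaction was 1.31, with a median change from GV to ovulated of -2.73 in WT and -1.24 in CKO. Of the 80, 64 fell in WT (36.2% of all tested genes), as did 418 of the 419 more positive genes. The share of 33.8% is therefore tied to the WT course. It was not compared among genes that fell in WT, or among short transcripts, alone. Summed over the subunits, the libraries held 6973 ± 1201 CPM in GV WT (SD, n = 4), 8394 ± 1431 in GV CKO (SD, n = 4), 3330 ± 66.1 in ovulated WT (SD, n = 3) and 6660 ± 2199 in ovulated CKO (SD, n = 3). These sums are on library totals and the log2 changes on TMM factors, so they cannot be set against each other directly. The factors ran from 0.697 in GV WT 1 to 1.47 in ovulated CKO 2. The ovulated CKO sums were 4668, 9020 and 6294 CPM, all above the WT range and differing widely among themselves. The count of 27 was 14 without ovulated CKO 2, 45 without ovulated CKO 1 and 17 without ovulated WT 1, and 14 after removal of the length trend.

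Complex I, the NADH dehydrogenase, had 12 of 37 subunits called (32.4%, against 3.17% of all tested genes) and a median of 1.51. Ndufc1, a membrane arm subunit, went from 12.8 to 0.650 CPM in WT and from 14.9 to 8.47 in CKO (means, interaction 3.48, SE 0.55, adjusted p = 0.00261). Ndufa7 had an interaction of 3.35 (adjusted p = 0.00371) and Ndufb9 one of 2.36 (adjusted p = 0.00466). The interaction was above 0 in 35 of the 37 subunits.

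Complexes II and III had 3 of 14 called (21.4%, against 3.17% of all tested genes, median 0.88). All were small subunits of complex III: Uqcrh at 2.33, Uqcrq at 2.11 and Uqcr10 at 1.97. For Uqcr10 ovulated CKO was at 101% of the GV CKO mean and ovulated WT at 25.8% of the GV WT mean. Its call was lost in 10 of 29 alternatives, among them removal of the length trend (adjusted p = 0.282) and leaving out ovulated WT 1 or CKO 2 (0.0656 and 0.0895). Cytochrome c oxidase had 4 of 11 called (36.4%, median 0.94), which were Cox7c, Cox7b (2.94), Cox4i1 (2.45) and, named after its values were seen, Cox6b1 (1.56). ATP synthase had 8 of 18 called (44.4%, median 1.41), led by Atp5j (2.90), Atp5e (2.76) and Atp5md (2.52). Atp5md went from 24.5 to 4.71 CPM in WT and from 31.4 to 34.7 in CKO.

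Factors that assemble these complexes had 6 of 44 called (13.6%, against 3.17% of all tested genes, median 0.63). Beside Chchd2 these included Cox17, the copper chaperone of cytochrome c oxidase, which went from 59.4 to 2.90 CPM in WT and from 70.1 to 40.4 in CKO (interaction 3.56, SE 0.48, adjusted p = 0.00099). Pet100, another assembly factor of that enzyme, had an interaction of 3.91 (adjusted p = 0.00261). Mitochondrial protein import had 4 of 34 called (11.8%, median 0.69): Tomm40, the pore of the outer membrane translocase (3.42), Timm9, a chaperone of the intermembrane space (2.19), Tomm6 (2.44) and, named after its values were seen, Mtx2 (1.79). Tomm6 was among the 7 genes that rose in CKO, from 29.97 to 67.3 CPM, while it fell in WT from 24.8 to 10.3. The calls were lost in 7 of 29 alternatives for Tomm6, 4 of 29 for Timm9 and 3 of 28 for Tomm40.

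Of 79 tested mitochondrial ribosomal proteins, which translate the mitochondrial genome's mRNAs, 8 were called (10.1%, against 3.17% of all tested genes). Their median was 0.50. Mrpl33 had an interaction of 3.71, falling from 20.4 to 0.347 CPM in WT and from 26.9 to 6.08 in CKO, and Mrpl30 one of 2.41. For Mrpl43 the ovulated WT libraries held 1, 4 and 4 reads and the ovulated CKO libraries 23, 94 and 36.

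The machinery that divides and fuses mitochondria, to which Mff belongs, was near the background. Of 29 tested members 2 were called (6.90%, against 3.17% of all tested genes), with a median of 0.07. Fis1, a tail-anchored outer membrane protein of the fission pathway, measured 4.26, 2.97 and 4.24 CPM in ovulated WT and 10.8, 26.1 and 17.96 in ovulated CKO, with GV means of 20.2 and 22.4 (interaction 2.11, SE 0.41, adjusted p = 0.0096). Mtfr1l, a regulator of mitochondrial shape, had an interaction of 2.03 (SE 0.52, adjusted p = 0.0399). Mtfr1l missed the threshold in 17 of 29 alternatives and Fis1 in 4 of 29.

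Of 79 tested genes for proteins of the cytosolic ribosome, 73 fell from GV to ovulated in WT (36.2% of all tested genes) and 68 in CKO (31.2%), while 2 rose in CKO. Of the 79, 30 were called more positive and 0 more negative (38.0%, against 3.17% of all tested genes). Their median interaction was 1.33, with a median change of -3.72 in WT and -2.43 in CKO. Summed on library totals, without the TMM factors of the log2 changes, they held 8671 ± 462 CPM in GV WT (SD, n = 4) and 10462 ± 1545 in GV CKO (SD, n = 4). After ovulation they held 1468 ± 111 in WT (SD, n = 3) and 3877 ± 1815 in CKO (SD, n = 3). The ovulated CKO libraries held 2561, 5947 and 3122 CPM, all above the 3 WT libraries (1532, 1533 and 1340) and below every GV library. Ribosomal protein genes have many near-identical processed pseudogenes, so how the authors' counting shared reads among them is uncertain. The share of 38.0% called is tied to the fall in WT as well, and it was not compared among genes that fell in WT, or among short transcripts, alone.

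The large subunit had 20 of 47 called (42.6%, median 1.33) and the small subunit 10 of 32 (31.2%, median 1.40). Over all tested genes the share was 3.17%. Rpl5, which carries the 5S ribosomal RNA (Entrez 100503670, chr5:107900508-107909005), measured 1098, 824, 1019 and 1201 CPM in GV WT and 823, 1462, 1247 and 1042 in GV CKO. It then measured 42.0, 44.4 and 32.4 in ovulated WT and 173, 394 and 177 in ovulated CKO (interaction 2.50, SE 0.44, adjusted p = 0.00466). The ovulated groups did not overlap, and both lay below every GV library. Rpl7 had an interaction of 3.20, Rpl31 2.26, Rpsa 2.95, Rps27 2.90 and Rps19 2.83.

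The count of 30 ribosomal proteins moved with single libraries of every group. It was 11 without ovulated CKO 2, and 18, 15 and 16 without ovulated WT 1, WT 2 or WT 3. It was 15, 16 and 16 without GV WT 1, WT 3 or WT 4, and 19 and 17 without GV CKO 1 or CKO 4. After removal of the length trend it was 14.

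**Figure D4:**
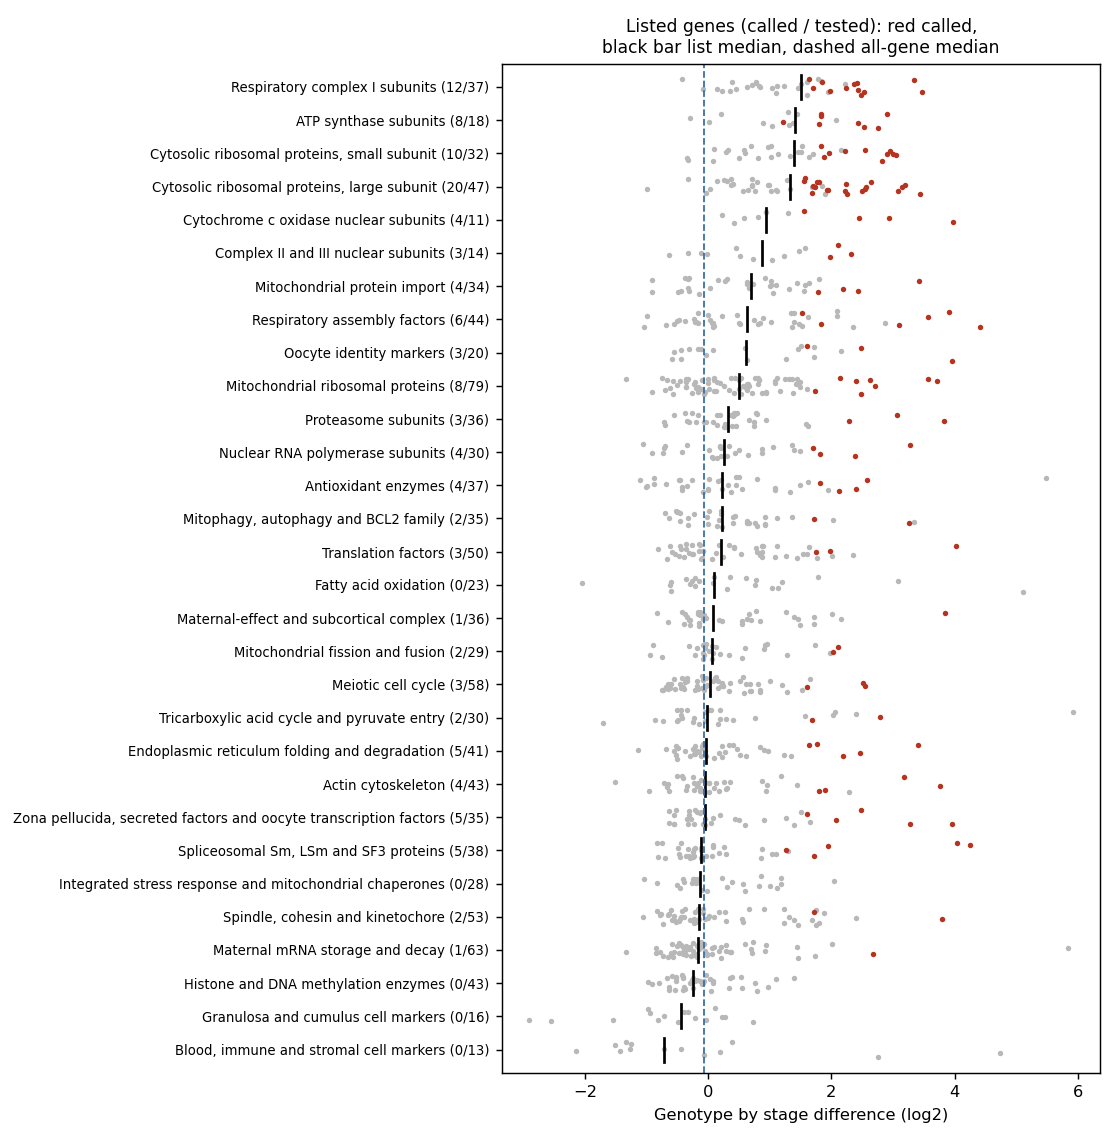
Interaction of every tested member of 30 gene lists (log2 scale, x axis), one list per line with the number called over the number tested; red points are called genes, black bars list medians and the dashed line the median of all tested genes. The lists of respiratory complex subunits, ATP synthase and cytosolic ribosomal proteins lie to the right with medians of 0.88 to 1.51, and the markers of other cells lie farthest left at -0.44 and -0.72, with the all-gene median at -0.07.

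Other machines of protein and RNA metabolism contributed single members, where 3.17% of all tested genes were called more positive. The proteasome had 3 of 36 called (8.33%, median 0.33), and all 3 were the catalytic or neighbouring beta subunits Psmb7, Psmb5 (2.29) and Psmb4 (3.06). Translation factors had 3 of 50 called (6.00%, median 0.21): Eif2s3x, a subunit of the initiator tRNA carrier (1.98, lost in 6 of 29 alternatives), Eif3g (1.74, lost in 20 of 29) and Eif2b5 (lost in 8 of 28). Eif2b5 had 0, 4 and 0 reads in ovulated WT and 12, 34 and 35 in ovulated CKO. Nuclear RNA polymerases had 4 of 30 called (13.3%, median 0.25), among them Znrd1 of polymerase I (3.27), Polr1d, shared by polymerases I and III (1.82, lost in 14 of 29 alternatives), and, named after its values were seen, Polr3c (1.70).

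The Sm, LSm and SF3 proteins of the spliceosome had 5 of 38 called (13.2%, against 3.17% of all tested genes). Their median of -0.12 nevertheless lay near that of all genes. Snrnp25, a protein of the minor spliceosome, went from 15.6 to 0.414 CPM in WT and from 19.4 to 10.1 in CKO (interaction 4.26, SE 0.62, adjusted p = 0.00158). Lsm10 of the U7 particle had an interaction of 1.71, lost in 9 of 29 alternatives, and Snrpd2 (1.95) and Lsm6 (1.26) were named after their values were seen. Lsm4, a member of the ring that binds U6 RNA and decay intermediates (Entrez 50783, chr8:70673231-70678752), took another course. It measured 10.6, 8.02, 10.2 and 11.3 CPM in GV WT, 4.52, 4.77, 7.38 and 6.75 in GV CKO, 3.73, 2.48 and 1.39 in ovulated WT and 7.79, 32.7 and 32.7 in ovulated CKO. CKO lay below WT in every GV library and above it in every ovulated library, with an interaction of 4.04 (SE 0.61, adjusted p = 0.00209). The GV difference of -0.78 did not itself pass the test (adjusted p = 0.938).

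Lsm4 and Tomm6 were among the 7 called genes that rose in CKO from GV to ovulated. The other 5, named after their values were seen, were Smdt1, a subunit of the mitochondrial calcium uniporter, Cdc25b, Fxr2, an RNA-binding protein, Atp5mpl, a small protein of ATP synthase, and Tmem259. Smdt1 went from 11.6 to 3.97 CPM in WT and from 11.7 to 23.5 in CKO (interaction 2.55, adjusted p = 0.0163). Atp5mpl went from 71.5 to 43.5 CPM in WT and from 82.6 to 165 in CKO (interaction 1.72, adjusted p = 0.0299). Tmem259 was also the single more positive gene that did not pass the test of a fall in WT (-1.23, adjusted p = 0.101). Gfra1 and Trem1 were the 2 more positive genes not called between the ovulated groups (adjusted p = 0.0794 and 0.268).

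Several genes known for their part in the oocyte were called. Zona pellucida genes, secreted factors and oocyte transcription factors had 5 of 35 called (14.3%, against 3.17% of all tested genes) and a median of -0.06. Zp2, a structural protein of the egg coat (Entrez 22787, chr7:120126762-120145291), measured 4814, 2771, 3944 and 5888 CPM in GV WT and 1739, 4163, 4854 and 4666 in GV CKO. Ovulated WT libraries held 138, 134 and 96.2 CPM and ovulated CKO libraries 485, 784 and 542. The groups were separate after ovulation and mixed before it (interaction 2.47, SE 0.50, adjusted p = 0.0121), and the call was lost in 2 of 29 alternatives, against a log2 limit of 1 and without ovulated WT 3 and CKO 2 (adjusted p = 0.0935 and 0.0818). Zp3, which binds sperm, went from 4357 to 192 CPM in WT and from 3740 to 498 in CKO (interaction 1.60, adjusted p = 0.042), and this call was lost in 17 of 29 alternatives. E330017A01Rik had an interaction of 3.27 (adjusted p = 0.00203) and Lhx8, an oocyte transcription factor named after its values were seen, one of 2.08. The list of oocyte identity markers, which shares these zona genes, had 3 of 20 called (15%, median 0.62): Figla, Zp2 and Zp3.

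Of 36 maternal-effect genes, which act in the embryo from the egg's store, 1 was called (2.78%, against 3.17% of all tested genes, median 0.07). This was Khdc3, a protein of the subcortical maternal complex, with means of 322 CPM in GV WT, 131 in GV CKO, 18.1 in ovulated WT and 106 in ovulated CKO (interaction 3.85, SE 0.78, adjusted p = 0.0128). Its GV WT libraries ranged from 116 to 473 CPM and its GV CKO libraries from 54.9 to 202. Of 63 genes of mRNA storage and decay 1 was called (1.59%, median -0.16): Cpsf4l, related to a cleavage and polyadenylation factor, which fell from 2319 to 6.01 CPM in WT and from 1895 to 31.3 in CKO (interaction 2.67, SE 0.71, adjusted p = 0.0466). That call was lost in 20 of 29 alternatives.

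The meiotic cell cycle had 3 of 58 called (5.17%, median 0.03), near the share of 3.17% over all tested genes. Cdc25b, the phosphatase that activates CDK1 at meiotic resumption, measured 13.1, 12.7 and 5.70 CPM in ovulated WT and 23.5, 74.9 and 54.0 in ovulated CKO, with GV means of 32.1 and 26.5 (interaction 2.55, SE 0.54, adjusted p = 0.0169). Fzr1, an activator of the anaphase-promoting complex that holds prophase arrest, measured 10.4, 6.58 and 4.67 CPM in ovulated WT and 18.6, 48.3 and 33.3 in ovulated CKO (interaction 2.51, SE 0.56, adjusted p = 0.0212). Anapc15, a subunit of that complex, had an interaction of 1.60 (adjusted p = 0.0496), a call lost in 22 of 29 alternatives. For Cdc25b and Fzr1 the ovulated groups did not overlap, and the calls were lost in 7 and 9 of 29 alternatives, among them without ovulated CKO 2 (adjusted p = 0.0644 and 0.082) and, for Fzr1, without ovulated WT 2 or WT 3 (0.0556 and 0.0585).

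The spindle, cohesin and kinetochore list had 2 of 53 called (3.77%, median -0.15), close to the share of 3.17% over all tested genes. They were Stag3, a meiotic cohesin subunit (3.80, adjusted p = 0.0169), and Birc5, of the chromosomal passenger complex (1.71, adjusted p = 0.032), and the calls were lost in 7 of 28 and 15 of 29 alternatives. The actin cytoskeleton had 4 of 43 called (9.30%, median -0.06). Tmsb10, which sequesters actin monomers, measured 33.4, 33.9 and 19.4 CPM in ovulated WT and 143, 525 and 515 in ovulated CKO, with both GV means at 352 (interaction 3.77, SE 0.51, adjusted p = 0.00099). Arpc1a of the Arp2/3 complex had an interaction of 3.18, the profilin Pfn2 1.79 (lost in 21 of 29 alternatives) and Actg1, named after its values were seen, 1.90.

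Antioxidant enzymes had 4 of 37 called (10.8%, against 3.17% of all tested genes, median 0.23). Among them were Glrx5, a glutaredoxin of iron-sulfur cluster assembly (2.58), Gpx4, which reduces lipid peroxides (2.41), and Prdx5 (1.81). Their calls were lost in 4, 3 and 4 of 29 alternatives. Sod1 (2.12), also called, was named after its values were seen. Gpx4 fell in both genotypes, from 54.2 to 0.916 CPM in WT and from 47.6 to 4.26 in CKO. Protein folding and degradation in the endoplasmic reticulum had 5 of 41 called (12.2%, median -0.03), with Derl3 at 3.41, Ssr4 at 2.46, Ost4 at 2.20 and, named after their values were seen, Spcs1 at 1.76 and Sec61g at 1.64. The calls of Derl3, Ssr4 and Ost4 were lost in 1, 3 and 6 of 29 alternatives. The tricarboxylic acid cycle had 2 of 30 called (6.67%, median -0.02), among them Aco1 at 1.68 (adjusted p = 0.0368, lost in 17 of 29 alternatives), whose product also binds RNA as an iron sensor. Mitophagy, autophagy and the BCL2 family had 2 of 35 called (5.71%, median 0.22), Map1lc3a at 3.26 (lost in 7 of 29 alternatives) and Birc5.

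In 3 lists of this kind edgeR's quasi-likelihood test called 0 members of either sign. That test called 3.26% of all tested genes, so 0 calls in lists of this size is near the background. Over all 13199 genes 15.5% had an unadjusted p under 0.05 in it, DESeq2 called 889 and voom 671. In fatty acid oxidation (23 tested, median 0.10) 3 members had an unadjusted p under 0.05, DESeq2 and voom each called 1, and the smallest p belonged to Etfb (1.20, adjusted p = 0.157). In the integrated stress response and mitochondrial chaperones (28 tested, median -0.13, 4 at an unadjusted p under 0.05, 2 by DESeq2 and 1 by voom) it belonged to Htra2, a protease of the intermembrane space, with 29.7, 25.5 and 29.7 CPM in ovulated WT and 14.95, 13.0 and 14.2 in ovulated CKO (-1.05, adjusted p = 0.0813). In histone and DNA methylation enzymes (43 tested, median -0.25, 1 at an unadjusted p under 0.05, 0 by DESeq2 and voom) it belonged to Dnmt3l (1.40, adjusted p = 0.201). A p above the threshold does not show that these genes behaved alike in both genotypes.

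Markers of other cell types were measured beside these groups. Over all tested genes edgeR called 3.26%, and 15.5% had an unadjusted p under 0.05. Granulosa and cumulus markers had 0 of 16 called by edgeR, DESeq2 or voom (1 at an unadjusted p under 0.05) and a median of -0.44. Their summed level was 1060 to 1316 CPM in ovulated WT, 563 to 969 in ovulated CKO, 477 to 650 in GV WT and 559 to 597 in GV CKO. Most of the sum was Serpine2. In TMM-normalised CPM, a scale other than that of the sums, it measured 950, 758 and 1074 in ovulated WT and 626, 276 and 537 in ovulated CKO. Its interaction was -0.95 (adjusted p = 0.283). Other markers of the list above 0 in all 14 libraries included Cyp19a1 (at most 91.6 CPM), Slc18a2 (88.8), Nr5a2 (17.8), Cyp11a1 (14.99) and Kitl (14.6), whereas Foxl2, Ptx3, Tnfaip6 and Pgr reached at most 0.149 CPM in any library. Blood, immune and stromal markers had 0 of 13 called by edgeR (3 at an unadjusted p under 0.05, 1 by DESeq2, 0 by voom), with a median of -0.72 and sums of 98.9 to 160 CPM in ovulated WT and 86.0 to 125 in ovulated CKO. The smallest p among them was that of Csf1r, with 1, 0 and 0 reads in ovulated WT and 1, 20 and 10 in ovulated CKO (adjusted p = 0.0743). The part of other cells in the interaction was not tested.

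Of the 1045 tested genes in any list 120 were called more positive, where 3.17% of all tested genes were. Most of the 419 therefore lie outside the lists. Among called genes of at least 5 CPM in 1 group, the largest fitted interactions belonged to genes nearly absent from ovulated WT oocytes, for which reads are given in place of a fold. Acy3, an aminoacylase, had 0, 1 and 1 reads in ovulated WT and 24, 92 and 15 in ovulated CKO, after 91 to 251 in each GV library. Snx15, a sorting nexin, had 1, 6 and 2 reads against 28, 280 and 47, and Commd4 had 6, 1 and 0 against 126, 151 and 77. Best2 had 3, 1 and 0 reads against 13, 125 and 51. Mvd, an enzyme of sterol synthesis, had 0, 0 and 6 reads against 6, 33 and 39. The ovulated groups of Mvd overlapped, and its call was lost in 17 of 28 alternatives. For Mtg2, a mitochondrial GTPase, the reads were 1, 0 and 0 against 9, 40 and 1, so those groups touch at 1 read. The Mtg2 call was lost in 11 of 28 alternatives. A mean under 5 CPM in every group held for 52 of the 419 genes.

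The 3 ovulated CKO libraries did not share the same distance from WT. Over the 419 genes, the median level relative to the mean of the 8 GV libraries was 5.67%, 5.23% and 4.77% in ovulated WT 1, 2 and 3. It was 19.3%, 49.6% and 26.3% in ovulated CKO 1, 2 and 3, and 85.5% to 118% in the GV libraries. CKO 2 was the highest of the 3 in 371 genes and CKO 1 the lowest in 339. The genes were called from these same libraries, and the order was not counted over all tested genes, so it is no separate result about them. CKO 2 also had the highest TMM factor, 1.47, and the lowest share of counts in its 100 most abundant genes, 24.99%, against 29.5% and 30.5% in CKO 1 and 3. The part of these library properties in the interaction was not tested. The median over all tested genes lay between 80.0% and 86.1% in all 6 ovulated libraries. TMM factors are set to align most genes, so this narrow range follows in part from the scaling.

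**Figure D5:**
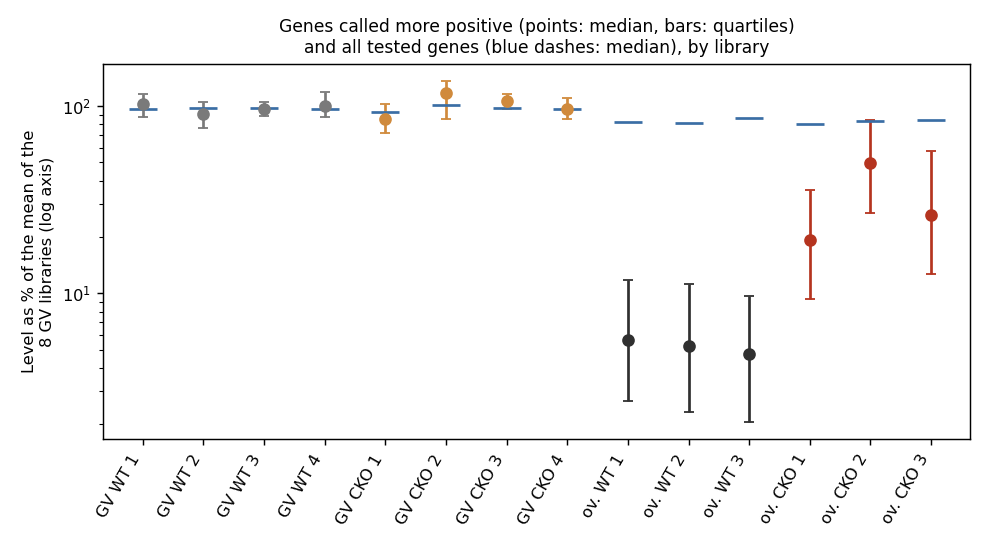
Level of the 419 more positive genes in each library as a percentage of the mean of the 8 GV libraries (log axis); points are medians, bars quartiles, and blue dashes the median of all tested genes. The 3 ovulated WT libraries lie between 4.77% and 5.67%, the 3 ovulated CKO libraries at 19.3%, 49.6% and 26.3%, and the blue dashes change little. Levels are TMM-normalised CPM, whose factors are set to align most genes.

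The 11 genes with a more negative interaction were mostly scarce. They were Cthrc1, Chrdl1, Ott, Pramel4, Bambi, Magea5, Klhl7, Tbx15, Gm45935, B3galt2 and Trp53rkb, and 10 of them had means under 5 CPM in every group. Magea5 (Entrez 17141, chrX:155053061-155063151), of the MAGE family, measured 2.24, 2.50, 2.57 and 2.80 CPM in GV WT and 3.01, 4.60, 2.36 and 2.13 in GV CKO. It then measured 9.41, 5.87 and 14.2 CPM in ovulated WT and 3.38, 1.75 and 2.49 in ovulated CKO, so that it rose with maturation in WT and was not called in CKO (interaction -2.21, SE 0.52, adjusted p = 0.0254). The MAGE family has near-identical members, so its reads may be shared. The call was lost in 12 of 28 alternatives, among them without GV WT 1, GV WT 3, GV CKO 2, ovulated WT 3 or ovulated CKO 2 (adjusted p = 0.0508 to 0.0913). Klhl7 had 122, 81 and 91 reads in ovulated WT and 33, 32 and 27 in ovulated CKO, with 46 to 106 in the GV libraries (interaction -2.27, adjusted p = 0.0285).

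The count of 11 was 5, 5 and 6 without GV WT 1, WT 3 or WT 4, 5 without GV CKO 2, and 7 and 6 without ovulated WT 1 or WT 3. It was 3 without ovulated CKO 2 and 101 without ovulated CKO 1. Bambi, a decoy receptor of the TGF-beta family, had 8, 4 and 2 reads in ovulated WT and 0 in all 3 ovulated CKO libraries, after 16 to 37 in the GV libraries. Of the 11, 7 rose in WT from GV to ovulated (30.3% of all tested genes) and 9 fell in CKO (31.2%). In 10 every ovulated CKO library lay below every WT library, as in 13.1% of all tested genes, and Ott was the exception, with 32, 0 and 117 reads in WT and 0 in CKO. The 11 genes were called from these same libraries, so these counts follow largely from the selection.

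The threshold itself fell within a continuous series of values. Just inside it stood Cyth2 with an interaction of 2.12 (SE 0.57, adjusted p = 0.0497) and Dmgdh with 2.22 (SE 0.60, adjusted p = 0.0497), and just outside Zdhhc16 with 1.68 (SE 0.46, adjusted p = 0.0501) and Rps12 with 1.63 (SE 0.44, adjusted p = 0.0514).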

How the data were processed

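RNA of 14 mouse oocyte libraries was compared by genotype and stage. Per the labels' protocols, cells were lysed in lysis buffer and cDNA was made with SMART-SeqII and amplified by PCR. The submitters' processing notes name the genome build mm10; no source used here names the aligner or counter. Per the file headers, the authors deposited read counts per gene and library in 1 table a stage. These are estimated counts as deposited, since 18.2% of the values above 0 lay more than 0.001 from a whole number. The authors also deposited FPKM, normalised for transcript length and depth.

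Estimated counts of genes in both tables were rounded and fitted with edgeR's robust quasi-likelihood model (4.0.16, under R 4.3.3), 1 coefficient per group, after filterByExpr on the groups and with TMM factors from all 14 libraries. The interaction and 4 simple contrasts were tested with F tests, adjusted with Benjamini-Hochberg over 13199 genes and called at adjusted p under 0.05; adjusted p-values in the text are from this fit unless an alternative is named. Standard errors were derived from the F statistic. Sums over lists are on library totals, with no TMM factor. The fit was tested on simulated counts.

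Libraries of a group differed by more than counting noise: 18 pairs had chi-square values of 20.2 to 338 per degree of freedom and Spearman correlations of 0.950 to 0.986.

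The genes and lists were chosen with earlier results of these data known. Named were Mff, the 15 largest positive and 10 largest negative interactions among called genes with at least 5 CPM in 1 group and a non-systematic symbol, and from each list the 3 called members with the smallest p, or its smallest-p member; some named genes are not reported here. Of the identifiers, 18456 matched the RefSeq table of GRCm38.p6, which gave coordinates. Effective length is the count over FPKM and library total, as a median over libraries with a count of at least 10 and FPKM of at least 0.5. Coding parts, 3' UTRs and windows are those of 1 GENCODE vM21 transcript per gene. Alternatives were other size factors and filters, DESeq2 1.42.0, limma 3.58.1 on counts and on log2(FPKM + 0.1) or log2(FPKM + 1), a replicate block, a log2 limit, removal of length or of length and GC trends, and leaving out libraries.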

Additional observations from a re-analysis of the deposited data

Results flagged for a closer look

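The genotype effect differed between stages, by the interaction test of edgeR's quasi-likelihood fit, in 419 genes in the positive and 11 in the negative direction.

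In 12 of 214 groups of 4 libraries 1 library lay apart by Dixon's criterion, where chance gives about 5%, or 1 in 20. GV WT 2 did so in 7 of them. It was low for Rpsa (53.2 CPM), Cox4i1 (163.4) and Etfb (19.8) and high for Lsm10 (278.4 CPM), and for the sums of fission and fusion genes (2676 CPM), meiotic cell cycle genes (13289) and blood, immune and stromal markers (130.3). GV WT 1 stood apart for Eif2b5 (4.88 CPM) and Rps27 (67.4), GV CKO 2 for Eif2b5 (1.94), and GV CKO 4 for Snx15 (20.2) and the sum of mitophagy, autophagy and BCL2 genes (7395).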

How the results depend on the processing

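The 430 calls, 419 more positive and 11 more negative, with 27 respiratory and ATP synthase subunits and 30 cytosolic ribosomal proteins, moved with the processing, and no named gene reversed its direction in any alternative. With library totals alone the counts were 236, 232 and 4 (27 subunits became 17). DESeq2 called 889 genes, 850 and 39, with 41 subunits, and voom with quality weights 671, 70 of them more negative. On log2(FPKM + 0.1) limma called 191, 185 and 6, with 17 subunits. On log2(FPKM + 1) it called 94, 89 and 5, with 11 subunits and 10 ribosomal proteins, and without a filter 54, 49 and 5, with 6 and 7. Against a log2 limit of 1 the counts were 62, 61, 1, 6 and 6. Among genes with a mean of at least 10 CPM edgeR called 389 more positive and 0 more negative, with 1142 of either sign at an unadjusted p under 0.05. With the length trend removed 32 were more negative, with 14 subunits and 14 ribosomal proteins. After removal of length and GC trends together, which was chosen after seeing the data, the counts were 303, 273, 30, 15 and 14.

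Leaving out single libraries gave 129 to 1006 calls, 126 to 905 more positive, 3 to 101 more negative, 14 to 45 subunits and 11 to 43 ribosomal proteins. Without GV WT 2, CKO 1 and CKO 2 the counts were 229, 224 and 5, with 16 ribosomal proteins, and without ovulated WT 3 and CKO 2 they were 157 and 149, with 11. The cause of these movements was not tested.

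WT and CKO libraries share replicate numbers. The deviations of same-numbered libraries correlated at -0.31, 0.21, 0.07 and 0.40 in GV and 0.07, 0.02 and 0.15 in ovulated oocytes, and not every library correlated best with its own number, so the numbers were not taken to pair them. With the replicate block 262 genes were called, 254 more positive, with 15 ribosomal proteins.

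Of 79 named genes 73 were called, and 16 of these passed the threshold in every alternative that tested them. Effects near the threshold and genes with few reads in ovulated oocytes are limited by 3 libraries a group.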
